A study of Mus musculus with 36 samples.

Results

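The diaphragm of mdx mice at 112 days was compared with the diaphragm of control mice of the same age, the oldest of the 6 ages that the series covers. The mdx group and the control group at 112 days were chosen by their sample titles and held 3 arrays each, 6 of the 36 arrays of the series, and the comparison covers every gene on the array. mdx mice carry a point mutation in Dmd that removes full-length dystrophin from muscle, and the other mice are labelled only as control. Total RNA of whole diaphragm was hybridised to 1-colour Affymetrix arrays. The labels give no strain, sex or pooling, and do not say that the replicates were separate animals, so p-values measure the spread between arrays, which may be technical.

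Dystrophin links the contractile apparatus of a fibre to the membrane and the matrix around it. Without it fibres tear, degenerate and are rebuilt by satellite cells, the resident stem cells, which fuse into new fibres that pass through a fetal programme of myosins and acetylcholine receptors. Macrophages clear the debris and signal to fibroblasts, which lay down collagen. In mdx mice the diaphragm is the muscle known for lasting damage and progressive scarring, while limb muscles recover better.

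Of 9291 probe sets tested, 711 (7.65%) were higher and 420 (4.52%) were lower in mdx than in control diaphragm at 112 days, by limma with an adjusted p under 0.05. A change of at least 2-fold was present in 354 of the higher and 113 of the lower probe sets. The median log2 difference over all probe sets was 0.015. Differences are given on a log2(signal + 32) scale with their standard error (SE). The 5 largest rises were in Myl4 and Myh3, contractile proteins of fetal and regenerating muscle, Ankrd1, a stretch-responsive muscle protein, Npnt, a matrix ligand of integrins, and C1qtnf3, a secreted collagen-like protein. They are followed by Myh8, Postn, Mmp12, Lgals3, Tnnt2, Mmp3 and Bex1, so fetal muscle, matrix and macrophage genes make up most of the leading 12. All 3 mdx arrays lay above all 3 control arrays in 13.7% of probe sets and below them in 9.84%. The leading 10 falls were in Rpl41, Uox, Rhou, Ces1d, Adig, Scd1, Clcn1, Dipk1b, Retn and Mstn.

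**Figure D1:**
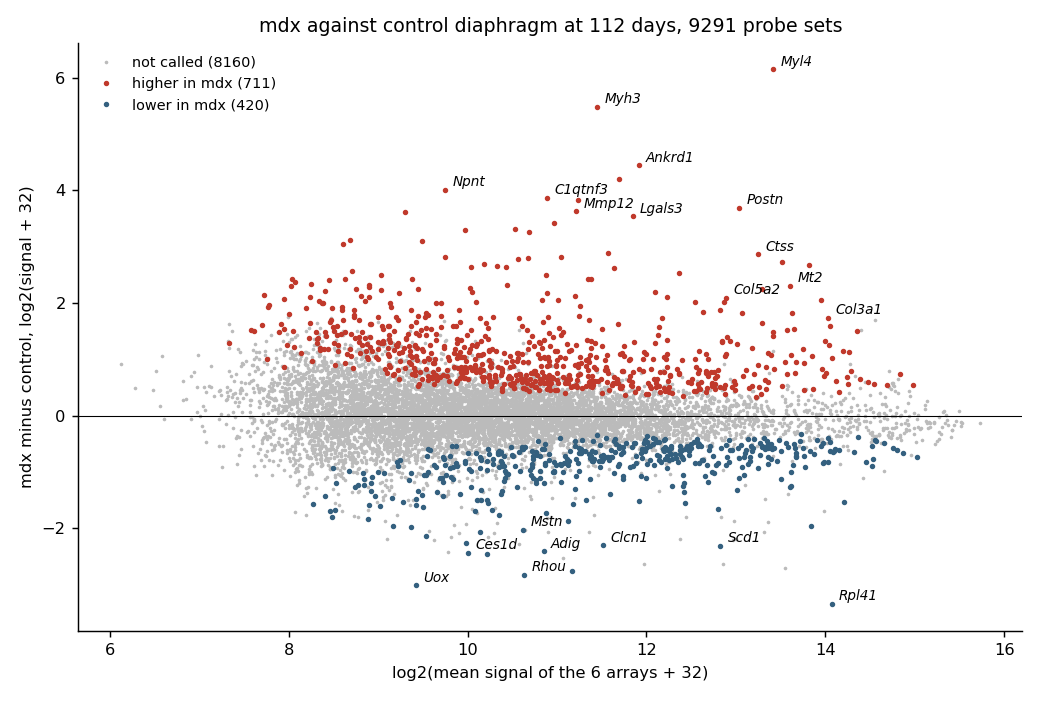
Each point is a probe set; the x axis is the log2 of the mean signal of the 6 arrays plus 32, and the y axis is mdx minus control on the log2(signal + 32) scale. Red points are the 711 probe sets called higher in mdx and blue points the 420 called lower; Myl4 stands highest at 6.15 and Rpl41 lowest at -3.35.

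The groups were apart, but the arrays of each differed widely in liver transcripts. The leading principal component of the 6 arrays held 35.4% of the variance and placed mdx arrays at 21.0 and above and control arrays at -17.2 and below. Arrays correlated with r of 0.899 to 0.933 within mdx and 0.893 to 0.914 within control. Albumin (Alb), a liver transcript, read 805.4, 15430.5 and 773.5 in mdx against 235.6, 18782.4 and 37444.4 in control. Calls are therefore also given from a fit without the 9 arrays of the series above 10000, of which 3 are here; it leaves 1 control array at 112 days, assumed to vary like the other groups. The Gapdh 3'/5' ratio, a sign of RNA state, was 0.532 to 0.665 in mdx and 0.518 to 0.930 in control. The actin 3'/5' ratio was 0.193, 0.403 and 0.937 in mdx against 1.68, 0.53 and 1.41 in control, with overlap but lower in mdx on average, and its part in the results was not tested. Summed signals of 6 skeletal muscle markers were 138348 to 165286 in mdx and 121014 to 215885 in control, so both groups carried strong muscle RNA. In RNA of whole tissue, fewer cells of a type and less RNA per cell cannot be told apart.

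Dmd itself, read by a single probe set, had signals of 280.5, 311.2 and 547.6 in mdx against 1026.2, 762.7 and 447.3 in control. The groups overlap, since mdx replicate 3 lies above control replicate 3. Utrn, which encodes the dystrophin relative utrophin, had 598.8, 684.1 and 734.5 in mdx against 532.7, 397.5 and 673.5 in control (log2 0.34, adjusted p = 0.48), and its other tested probe set gave 0.77 (adjusted p = 0.22). Of 15 genes of the dystrophin complex and its links to the cytoskeleton 1 (6.7%) was higher and 2 (13.3%) were lower. Among all 6794 genes tested 8.27% were higher and 5.09% lower, so these counts are not a result about the complex. Cav3, the muscle caveolin, was the only one called higher, at 14274.3, 12156.3 and 11488.3 in mdx against 6612.8, 7205.7 and 6427.7 in control (log2 0.90 ± 0.124 SE, adjusted p = 5.2e-06). Dmd (log2 -0.90, adjusted p = 0.045) and Tln1 (-1.27, adjusted p = 0.026), which encodes the adaptor talin, were called lower. Without mdx replicate 3 the Tln1 difference was -0.44 (adjusted p = 0.37), and its call was also lost without control replicate 1 (0.11) or control replicate 2 (0.062), without the arrays of high albumin (0.057) and on the 6 arrays alone (0.29). The 2 further Tln1 probe sets read 0.50 and 0.16 and were not called. The Dmd call did not hold without mdx replicate 1 (-0.73, adjusted p = 0.16), mdx replicate 2 (-0.80, 0.15), control replicate 1 (-0.64, 0.23) or control replicate 2 (-0.85, 0.12), without the arrays of high albumin (adjusted p = 0.057), and on the 6 arrays alone (adjusted p = 0.30).

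The main collagens of scar tissue were higher in mdx diaphragm. Of 8 fibrillar collagen genes tested, 4 were higher and 0 were lower, with a median log2 difference of 0.96, where 8.27% of all 6794 genes were higher, 5.09% were lower and the median was 0.0119. The 4 were Col5a2, Col3a1, Col1a2 and Col1a1, the chains of collagens V, III and I that form the fibres of scar tissue. Col5a2 had 11795.4, 13795.9 and 11188.0 in mdx against 2296.4, 2732.2 and 3613.0 in control, a 4.28-fold difference of signal + 32 (log2 2.10 ± 0.143 SE, adjusted p = 4.5e-12). Col3a1 had 25833.7, 28479.2 and 23029.5 in mdx against 7556.5, 7394.1 and 8081.3 in control (log2 1.74 ± 0.154 SE, adjusted p = 1.1e-09). Every mdx array lay far above every control array for both genes.

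Col1a2 had 14586.5, 18272.8 and 12733.1 in mdx against 4879.5, 5104.8 and 4392.4 in control (log2 1.65, adjusted p = 1.7e-09). Col1a1 had 28356.2, 36976.6 and 27327.9 in mdx against 9443.5, 9894.9 and 13400.7 in control (log2 1.50 ± 0.343 SE, adjusted p = 0.0028). Both chains of collagen I were thus about 3 times as bright in mdx, with no overlap. Not all probe sets of these genes agreed: a second Col1a1 probe set gave log2 0.14 (adjusted p = 0.61) and a second Col1a2 probe set gave -0.02 (adjusted p = 0.97). The 2 further Col3a1 probe sets were both called, at 2.13 and 1.12.

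Among 20 basement membrane and other collagen genes 7 were higher and 0 lower (median 0.41). Col6a3, a chain of the microfibril collagen VI around fibres, had 14379.0, 18510.5 and 15278.8 in mdx against 6467.7, 5226.9 and 5441.2 in control (log2 1.48, adjusted p = 5.1e-09). Lama2, the laminin chain of the muscle basement membrane that binds the dystrophin complex, had 3203.9, 3439.9 and 4046.9 in mdx against 1580.0, 1581.5 and 1875.9 in control (log2 1.07, adjusted p = 3.5e-06). Col8a1 (1.02), Col15a1 (0.58) and Col6a1 (0.48) were also higher. This count fell to 4 without mdx replicate 2 or without control replicate 1, to 3 without the arrays of high albumin and to 2 on the 6 arrays alone. In these last 2 fits Col8a1 (adjusted p = 0.15 and 0.051), Col15a1 (0.12 and 0.11) and Col6a1 (0.058 and 0.19) were lost; Col15a1 was also lost without mdx replicate 1 (0.055), and Col6a1 without mdx replicate 2 (0.053), mdx replicate 3 (0.061) or control replicate 1 (0.069). Of 12 genes for collagen processing and crosslinking 4 were higher and 0 lower (median 0.46). Lox, the enzyme that crosslinks collagen, had 1667.2, 1562.6 and 871.4 in mdx against 448.6, 595.9 and 615.2 in control (log2 1.22, adjusted p = 9.0e-05). Ppib (1.01), a proline isomerase of the endoplasmic reticulum, and Serpinh1 (0.53) and Crtap (0.62), which help fold collagen, were the other 3. On the 6 arrays alone 1 of the 12 was called. A second Lox probe set gave 0.28 (adjusted p = 0.72), and the calls of Lox (adjusted p = 0.070), Serpinh1 (0.14) and Crtap (0.21) were lost on the 6 arrays alone. Crtap was also lost without control replicate 1 (adjusted p = 0.092), control replicate 3 (0.063), mdx replicate 2 (0.20), mdx replicate 3 (0.062) or the arrays of high albumin (0.16).

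Matricellular and fibre proteins, which sit in the matrix and signal to cells, had 12 of 23 genes higher and 0 lower (median 0.84). Postn, or periostin, which binds collagen and promotes its crosslinking, had 15473.5, 17695.9 and 13493.1 in mdx against 1313.3, 1180.7 and 1023.2 in control, a 12.9-fold difference (log2 3.69 ± 0.163 SE, adjusted p = 8.2e-17). C1qtnf3 had 3556.4, 3315.2 and 3670.1 in mdx against 277.9, 148.2 and 220.8 in control (log2 3.87 ± 0.206 SE, adjusted p = 1.1e-14). Both genes stood more than 10-fold above control with little spread. Tnc, or tenascin C, a protein of healing tissue that is scarce in most healthy adult tissue, had 1848.4, 2728.4 and 1967.0 in mdx against 188.8, 442.5 and 355.0 in control (log2 2.67, adjusted p = 8.4e-08). Matn2 (1.34) and Sparc (1.08), a collagen-binding protein of remodelling tissue, were the next by adjusted p, although a second Matn2 probe set was not called (-0.49, adjusted p = 0.55). Fn1, fibronectin, was not called (0.32, adjusted p = 0.17), although its mdx signals of 3470.1, 3957.2 and 4208.0 lay above the control signals of 3412.5, 3004.2 and 2900.1.

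The small leucine-rich proteoglycans did not move as a group. Of 13 proteoglycan genes 4 were higher and 1 was lower (median 0.00). Lum, or lumican, which regulates fibril spacing, had 19390.1, 19333.8 and 18715.2 in mdx against 6560.5, 6509.4 and 6619.7 in control (log2 1.54 ± 0.115 SE, adjusted p = 2.6e-11), and the arrays of each group agreed closely. Bgn (1.13), Ogn (0.72) and Gpc1 (0.64) were higher, while Fmod, fibromodulin, was lower (-0.76, adjusted p = 0.043). In the fit without the arrays of high albumin 2 of the 13 were higher, and Bgn (adjusted p = 0.16), Gpc1 (0.051) and Fmod (0.72) were no longer called, and on the 6 arrays alone Ogn (0.091) and Fmod (0.12) were not. Second probe sets of Bgn (0.47, adjusted p = 0.18) and Ogn (0.24) were not called. Fmod was also lost without mdx replicate 2 (adjusted p = 0.17), mdx replicate 3 (0.12), control replicate 2 (0.20) or control replicate 3 (0.074).

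Matrix proteases and their inhibitors had 6 of 18 genes higher and 1 lower (median 0.52). Mmp12, the elastase of macrophages, had 4099.2, 4856.6 and 4154.9 in mdx against 385.1, 310.7 and 281.6 in control (log2 3.63, adjusted p = 7.6e-07). Mmp3, stromelysin, had 2710.2, 2836.5 and 2361.2 in mdx against 135.5, 348.8 and 265.2 in control (log2 3.32, adjusted p = 5.0e-05). Both went with a rise of their inhibitor Timp1, at 6384.0, 8590.0 and 5581.3 in mdx against 1956.7, 3446.5 and 2685.1 in control (log2 1.35, adjusted p = 0.00021). Adam19 (2.25), a membrane protease, and Serpinf1 (1.00) were also higher, although a second Serpinf1 probe set was not called (0.44, adjusted p = 0.54). Mmp2, the gelatinase of fibroblasts, read 354.5, 421.3 and 172.0 in mdx against 387.5, 47.8 and 98.3 in control, with overlap (log2 1.01, adjusted p = 0.34). Timp3, named here after its values were seen, was the single lower member (-0.81, adjusted p = 0.0040).

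Fibroblast markers were raised in part. Of 15 tested, 5 were higher and 0 lower, but the median was 0.10. S100a4, a calcium-binding protein of fibroblasts and macrophages, had 4893.1, 6206.0 and 5202.6 in mdx against 790.4, 939.0 and 820.6 in control (log2 2.63, adjusted p = 1.0e-09). Dpt (1.43) and Fap (1.24), genes of collagen-making fibroblasts, were higher, and so were Ccdc80 (0.80) and Islr (0.51). Pdgfra, the receptor that marks resident mesenchymal cells, had 7990.0, 6781.1 and 4753.1 in mdx against 5493.5, 5599.7 and 7224.2 in control and was not called (log2 0.07, adjusted p = 0.88). On the 6 arrays alone Ccdc80 (adjusted p = 0.10) and Islr (0.13) were not called, and Islr was lost without control replicate 1 (adjusted p = 0.054).

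TGF-beta signalling, the main pathway that drives matrix genes in fibroblasts, had 6 of 28 genes higher and 3 lower (median 0.00). The ligand Tgfb1 had 400.1, 209.3 and 346.6 in mdx against 67.2, 95.2 and 113.0 in control (log2 1.48 ± 0.420 SE, adjusted p = 0.016). All 3 control values and 2 of the 3 mdx values were under 374.5, the signal used as the limit for dim probe sets. This call failed without control replicate 1 (0.071), mdx replicate 1 (0.067) or mdx replicate 3 (0.059), and on the 6 arrays alone (0.15). The member with the lowest adjusted p was Mstn, myostatin, the fibre-made ligand that holds back muscle growth, with 474.1, 558.6 and 692.3 in mdx against 3341.6, 2451.8 and 1728.0 in control (log2 -2.03 ± 0.194 SE, adjusted p = 4.7e-09). Its antagonist Fst, follistatin, had 897.0, 854.6 and 750.0 in mdx against 88.4, 417.8 and 183.0 in control (log2 1.93, adjusted p = 0.00036). The ligand Bmp6 was lower (-1.63), while the nuclear proteins Tsc22d1 (0.83) and Tgif1 (1.24) were higher. On the 6 arrays alone Fst (adjusted p = 0.065) and Tgif1 (0.12) were not called, and Tgif1 was lost without the arrays of high albumin (0.44). Rises numbered 2 on the 6 arrays alone and 3 without the arrays of high albumin.

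**Figure D2:**
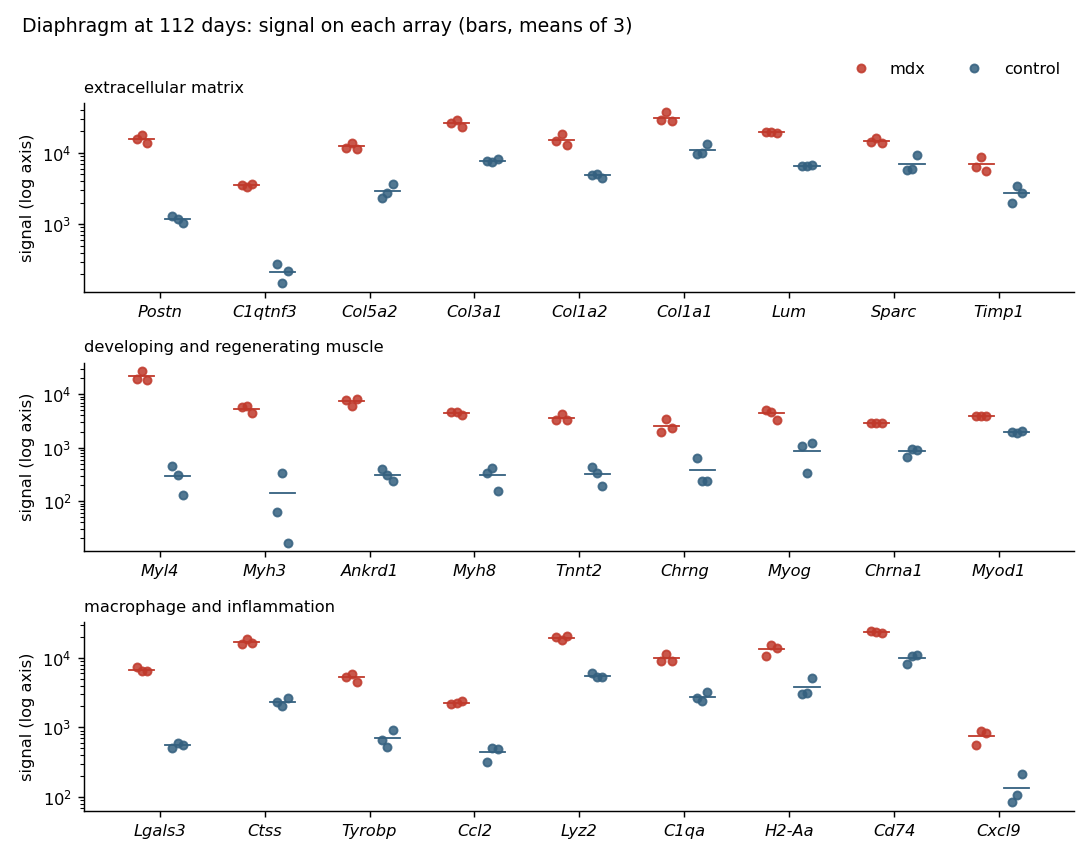
Signal of each array (log axis) for 27 genes, with mdx in red left of control in blue and bars at the means of 3 arrays. In every gene drawn the 3 mdx arrays lie above the 3 control arrays, with the widest gaps in Myl4 and Myh3. The genes were chosen from those called higher, some by a rule that requires no overlap, so the choice favoured this order. It is present in 13.7% of all probe sets. Genes that overlap, such as Mmp2 and Adgre1, are not drawn.

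Genes of fetal and regenerating muscle carried the largest differences. Of 16 developmental muscle genes 10 were higher and 0 lower, and the median log2 difference was 2.04. Myl4, the embryonic myosin light chain, had 19613.8, 26644.2 and 18172.5 in mdx against 452.9, 311.1 and 128.3 in control, the largest difference measured (log2 6.15 ± 0.256 SE, adjusted p = 2.9e-17). Myh3, the embryonic myosin heavy chain, had 5775.7, 6046.3 and 4364.6 in mdx against 63.5, 336.7 and 16.5 in control (log2 5.49 ± 0.445 SE, adjusted p = 1.4e-10). All 3 Myh3 and 2 of the 3 Myl4 control values were below the limit for dim probe sets, so the sizes of both differences depend on the added 32. Over the alternatives the log2 difference ran from 5.29 to 6.50 for Myl4 and from 4.84 to 6.30 for Myh3. A second Myl4 probe set was higher by only 1.14 (adjusted p = 0.00035).

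Myh8, the perinatal myosin heavy chain, had 4588.2, 4720.3 and 4036.7 in mdx against 340.3, 415.1 and 155.4 in control (log2 3.83, adjusted p = 5.2e-11). Tnnt2, the cardiac-type troponin T of embryonic muscle, had 3235.0, 4220.4 and 3362.1 in mdx against 433.0, 330.1 and 193.1 in control (log2 3.43, adjusted p = 2.6e-11). Ankrd1 had 7950.2, 6089.1 and 8021.0 in mdx against 390.6, 303.8 and 235.3 in control (log2 4.45, adjusted p = 7.6e-12). In each of these the mdx arrays lay close together and far above control. Calls of these 5 genes and of Myog, Myod1, Chrna1 and Chrnb1 held in every alternative run.

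The factors that run the myogenic programme were higher too, with 11 of 31 myogenic and satellite cell genes higher and 2 lower (median 0.13). Myog, or myogenin, which starts the differentiation of myoblasts, had 5105.2, 4718.7 and 3311.5 in mdx against 1073.7, 342.6 and 1227.3 in control (log2 2.43 ± 0.305 SE, adjusted p = 9.5e-07). Myod1, the lineage factor of activated satellite cells, had 3974.6, 3893.0 and 3898.6 in mdx against 1973.5, 1845.4 and 2070.8 in control (log2 0.99 ± 0.165 SE, adjusted p = 8.6e-05). Myf5 (1.59), a related lineage factor, rose as well, along with the cell cycle inhibitors Cdkn1c (1.73) and Cdkn1a (1.95), which hold differentiating myoblasts out of the cell cycle. Vcam1 (1.54), an adhesion protein of satellite cells and endothelium, was also higher. Second probe sets of Cdkn1a (0.14, adjusted p = 0.81) and Vcam1 (0.10, adjusted p = 0.86) were not called. The 2 lower members were Cav1 (-0.73), a caveolin of endothelium and fat cells, and Igf1 (-0.78, adjusted p = 0.043), a growth factor, both named here after their values were seen.

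Of 10 acetylcholine receptor and junction genes 4 were higher and 0 lower (median 0.39). Chrna1, the alpha subunit of the muscle receptor, had 2939.9, 2833.8 and 2946.4 in mdx against 682.3, 963.1 and 912.9 in control (log2 1.75 ± 0.162 SE, adjusted p = 2.8e-09). Chrnb1, the beta subunit, had 4211.8, 4333.5 and 4957.2 in mdx against 2245.9, 1673.6 and 2408.1 in control (log2 1.10, adjusted p = 3.1e-07). Runx1, a factor induced in denervated and damaged muscle, had 946.2, 534.7 and 623.0 in mdx against 79.5, 64.6 and 20.2 in control (log2 3.11, adjusted p = 5.1e-07). Chrng, the fetal gamma subunit, counted with the developmental genes and named here after its values were seen, had 1978.5, 3445.5 and 2342.1 in mdx against 652.9, 239.5 and 239.9 in control (log2 2.79, adjusted p = 1.5e-05). The fourth member, Gadd45a, a growth arrest gene, was higher by 0.68, a call lost without the arrays of high albumin (adjusted p = 0.073) and on the 6 arrays alone (0.086).

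Because these genes moved together with Myog and Myod1, whose proteins bind the sequence CANNTG (the E-box), the 150 bases before the annotated start of 4 muscle genes are shown beside those of 2 collagen genes, from RefSeq on GRCm38.p6, 5′ to 3′ on the strand of the gene. Capitals mark each E-box. The pattern CANNTG is the same on both strands, although the letters of a given match need not be.
Myog (chr1:134289854-134290003, + strand): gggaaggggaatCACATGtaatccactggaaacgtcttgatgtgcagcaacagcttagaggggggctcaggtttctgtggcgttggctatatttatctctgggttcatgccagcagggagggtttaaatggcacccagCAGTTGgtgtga
Chrna1 (chr2:73580339-73580488, - strand): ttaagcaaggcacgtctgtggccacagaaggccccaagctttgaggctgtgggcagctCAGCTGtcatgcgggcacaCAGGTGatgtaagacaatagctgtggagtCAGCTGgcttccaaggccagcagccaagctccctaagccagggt
Chrng (chr1:87205661-87205810, + strand): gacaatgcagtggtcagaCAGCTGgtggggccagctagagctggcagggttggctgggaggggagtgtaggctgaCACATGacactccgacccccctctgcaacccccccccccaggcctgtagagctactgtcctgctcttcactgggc
Myh3 (chr11:67078150-67078299, + strand): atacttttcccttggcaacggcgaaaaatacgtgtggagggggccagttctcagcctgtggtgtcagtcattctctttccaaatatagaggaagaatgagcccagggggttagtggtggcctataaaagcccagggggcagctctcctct
Col3a1 (chr1:45311388-45311537, + strand): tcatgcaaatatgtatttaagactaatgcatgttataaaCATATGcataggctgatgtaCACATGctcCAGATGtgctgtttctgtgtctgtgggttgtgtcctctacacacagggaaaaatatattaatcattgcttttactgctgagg
Col1a2 (chr6:4505468-4505617, + strand): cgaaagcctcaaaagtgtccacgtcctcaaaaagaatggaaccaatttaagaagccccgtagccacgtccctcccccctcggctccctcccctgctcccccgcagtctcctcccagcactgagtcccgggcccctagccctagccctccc
Chrna1 and Col3a1 held 3 E-boxes each, Myog and Chrng 2 each, and Myh3 and Col1a2 0 in this window. Over 32851 promoter windows of the same length, 47.7% held at least 1, 15.3% at least 2 and 3.72% at least 3. The counts describe letters only and do not show binding.

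Of 43 cell cycle genes tested, 5 (11.6%) were higher and 0 lower, with a median of 0.36, a share near the 8.27% of all genes. Kif20a, a kinesin of dividing cells, had 445.0, 628.6 and 643.4 in mdx against 99.3, 99.9 and 216.2 in control (log2 1.88, adjusted p = 0.0020). Kif11 (2.08), a spindle motor, Birc5 (1.45), a protein of mitosis, Mcm4 (0.96), a subunit of the replication helicase, and Kif22 (0.62) were the others. None of the 43 was called on the 6 arrays alone. With 3 genes called in the fit without the arrays of high albumin, Kif11 (adjusted p = 0.13), Birc5 (0.55), Mcm4 (0.36) and Kif22 (0.35) were not called. Mcm4 was lost without mdx replicate 2 (0.058) or control replicate 2 (0.20), and Kif22 without mdx replicate 1 (0.068), mdx replicate 2 (0.24), control replicate 1 (0.12) or control replicate 3 (0.17). The count ran from 3 without mdx replicate 2 to 8 without mdx replicate 3.

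Genes of the mature fibre differed little. Of 15 fast fibre genes 0 were higher and 1, Gpd1, was lower (median -0.15), and of 11 slow fibre genes 0 were higher and 1, Myl3, was lower (median -0.31). Myl3, the slow and ventricular myosin light chain, had 8391.3, 5974.2 and 7331.9 in mdx against 12107.1, 15789.8 and 19765.7 in control (log2 -1.12, adjusted p = 9.9e-06), a call lost without the arrays of high albumin (adjusted p = 0.057). The Gpd1 call (-0.73, adjusted p = 0.043), of a glycerol phosphate dehydrogenase, was lost without control replicate 1 (0.22) or control replicate 2 (0.064), without mdx replicate 1 (0.15), mdx replicate 2 (0.063) or mdx replicate 3 (0.058), and on the 6 arrays alone (0.11). A second Gpd1 probe set was not called (-0.67, adjusted p = 0.53).

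Calcium handling genes included both directions, 3 higher and 1 lower of 12 (median -0.08). Cacng1, the gamma subunit of the voltage sensor of muscle, had 4409.8, 4936.2 and 4745.5 in mdx against 2867.7, 2154.8 and 2077.2 in control (log2 0.99, adjusted p = 0.00041). Cacna1s, its pore subunit, had 10182.5, 10154.0 and 8808.8 in mdx against 13199.7, 12971.6 and 13111.3 in control (log2 -0.43, adjusted p = 0.021). The calpain genes Capns1 (0.50) and Capn2 (0.58) were the other rises, and both, like Cacna1s, were lost when single arrays were left out: without control replicate 1 the adjusted p was 0.16 for Capns1, 0.28 for Capn2 and 0.056 for Cacna1s, and without mdx replicate 3 it was 0.051, 0.088 and 0.11. Capns1 was also lost without mdx replicate 2 (0.10) or control replicate 3 (0.055), Capn2 without mdx replicate 1 (0.11), and Cacna1s without control replicate 2 (0.050). In the fit without the arrays of high albumin Cacng1 (0.18), Capns1 (0.060) and Cacna1s (0.12) were lost, and on the 6 arrays alone Capns1 (0.15), Capn2 (0.25) and Cacna1s (0.15).

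Macrophage transcripts were high in mdx diaphragm at 112 days. Of 36 macrophage and monocyte genes 23 were higher and 0 lower (median 1.14). Summed over 5 defining markers the signal was 33585.7, 32586.0 and 32414.4 in mdx against 9822.1, 9149.9 and 9393.9 in control, and all 5 markers were called. Lyz2 makes up most of this sum, and Adgre1, the macrophage receptor F4/80, overlapped, with 1376.5, 1308.8 and 295.8 in mdx against 161.3, 320.5 and 305.4 in control (adjusted p = 0.043). Ctss, cathepsin S, a lysosomal protease of antigen-presenting cells, had 15942.1, 18722.9 and 16603.7 in mdx against 2285.0, 2060.7 and 2609.6 in control, a 7.3-fold difference (log2 2.87 ± 0.210 SE, adjusted p = 1.7e-11). Tyrobp, a signalling adaptor of myeloid receptors, had 5397.3, 5937.3 and 4547.7 in mdx against 667.6, 518.6 and 916.1 in control (log2 2.89, adjusted p = 1.0e-09). Both genes separated the groups fully and with narrow spread.

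Lyz2, lysozyme, had 19893.1, 18063.4 and 20988.3 in mdx against 6070.7, 5225.9 and 5240.0 in control (log2 1.83, adjusted p = 5.4e-08). Cd68, a lysosomal glycoprotein of macrophages, had 2547.9, 3065.1 and 2926.5 in mdx against 1018.8, 1293.4 and 908.7 in control (log2 1.39, adjusted p = 0.00055). Cd53 (3.27) and Cd63 (1.08), membrane proteins of leukocytes and of lysosomes, were higher as well. Of the 36 genes 12 were called higher without the arrays of high albumin. The lysosomal proteases and their inhibitors followed, with 13 of 22 higher and 0 lower (median 0.66), among them Lgmn (1.54), Ctsk (1.42), Ctsc (1.31), Cstb (1.09) and Ctsb (0.83), and 6 of 22 were called without those arrays. The other Ctsb probe sets (0.51, 0.21 and -0.49) were not called. Of the other Ctsc probe sets, one was called (1.08) and one was not (0.35, adjusted p = 0.74).

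Markers of alternatively activated macrophages, the state linked to repair and matrix, had 8 of 16 genes higher and 1 lower (median 0.97). Lgals3, galectin 3, a lectin of phagocytes, had 7302.0, 6375.2 and 6551.9 in mdx against 498.3, 600.3 and 551.1 in control, an 11.7-fold difference (log2 3.54 ± 0.328 SE, adjusted p = 2.8e-09). Pltp (1.03), a lipid transfer protein, Stab1 (0.89), a scavenger receptor, the interleukin 4 receptor Il4ra (1.31) and Cd44 (1.48) were also higher. In the fit without the arrays of high albumin Stab1 (adjusted p = 0.094) and Cd44 (0.13) were not called and the count was 5. On the 6 arrays alone Il4ra (0.13) and Cd44 (0.15) were not called and the count was 4. Cd44 was also lost without control replicate 3 (0.071). A second Il4ra probe set gave -0.20 (adjusted p = 0.87). Spp1, osteopontin, had no probe set under that symbol and is not analysed here. The same holds for Retnla, Cd163, Mgl2, Clec10a, Gpnmb and Trem2 of this list, and Il10 and Il10ra were too dim to be tested. The counts therefore leave out these markers.

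The chemokines that recruit monocytes were higher, with 6 of 23 chemokine and receptor genes up and 1 down (median 0.74). Ccl2, the main monocyte attractant, had 2172.1, 2222.0 and 2429.2 in mdx against 320.4, 502.7 and 492.0 in control (log2 2.32 ± 0.458 SE, adjusted p = 0.00064). Its receptor Ccr2 had 2367.4, 2252.7 and 2278.0 in mdx against 541.0, 865.8 and 864.7 in control (log2 1.59, adjusted p = 0.00029). Ligand and receptor were thus both higher, with the mdx arrays nearly equal. Ccl7 (2.17), a related attractant, and Cxcl9 (2.29), an interferon-induced ligand of T cells, rose as well, while Cxcl12 had 2133.3, 2144.0 and 2154.8 in mdx against 3714.4, 4526.0 and 5600.9 in control (log2 -1.07, adjusted p = 1.4e-05). Ccl7 was not called without the arrays of high albumin (adjusted p = 0.23) or on the 6 arrays alone (0.082). A second of the 3 Cxcl12 probe sets was also lower (-0.92), and the other read -0.15 (adjusted p = 0.64).

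Class II antigen presentation genes were often higher, while complement genes went both ways. Of 15 class II genes 7 were higher and 0 lower (median 1.20). H2-Aa, a class II chain, had 10690.2, 15363.0 and 13839.0 in mdx against 3064.7, 3161.5 and 5187.7 in control (log2 1.82, adjusted p = 0.0020). Cd74, the invariant chain, had 24455.9, 23573.3 and 22672.1 in mdx against 8243.2, 10604.6 and 11062.3 in control (log2 1.25, adjusted p = 6.3e-05). Ifi30 (2.26), a thiol reductase of antigen processing, H2-Eb1 (1.20) and H2-DMa (1.20) were higher. Of 14 complement genes 4 were higher and 2 lower (median 0.21), and the rises included the 3 chains of C1q, made by macrophages. C1qa had 9004.1, 11571.4 and 9049.1 in mdx against 2642.1, 2398.5 and 3214.0 in control (log2 1.83, adjusted p = 4.6e-09), and C1qb (2.19) and C1qc (1.33) moved alike, although a second C1qb probe set read -0.02 (adjusted p = 0.98). The receptor C3ar1 was higher (1.18), and Cd59a, an inhibitor of the lytic complex, was lower (-0.85). Clu, clusterin, chosen after its values were seen, was the other fall (-0.59). Lost without the arrays of high albumin were H2-Aa (adjusted p = 0.077), H2-DMa (0.17), C3ar1 (0.28) and Cd59a (0.27), and 4 class II genes were called there. On the 6 arrays alone H2-DMa (0.089), C3ar1 (0.069) and Cd59a (0.070) were not called. H2-DMa was lost without control replicate 2 (0.054), and its second probe set read 0.22 (adjusted p = 0.72).

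Interferon response genes had 10 of 29 higher and 0 lower (median 0.50). Psmb8, a subunit of the immunoproteasome, had 2652.7, 3350.8 and 3119.6 in mdx against 887.2, 1714.3 and 1608.7 in control (log2 1.15, adjusted p = 6.5e-05). Irf8 (1.59), a factor of myeloid cells, Ifi204 (1.18), Igtp (1.12) and Isg15 (0.87) were higher. The count was 5 without control replicate 1 or control replicate 2, 6 without mdx replicate 2 and 3 on the 6 arrays alone. Isg15 was lost without control replicate 1 (adjusted p = 0.14) and on the 6 arrays alone (0.16), and Igtp on the 6 arrays alone (0.073) and without the arrays of high albumin (0.14). A second Ifi204 probe set gave -0.84 (adjusted p = 0.48). Of 12 class I and immunoproteasome genes 2 were higher, Psmb8 and Tapbp (0.49), and Tapbp was lost without control replicate 1 (0.050) and on the 6 arrays alone (0.14), and its 2 other probe sets were not called (0.30 and 0.19). Annexins, galectins and S100 proteins had 7 of 18 higher and 0 lower (median 0.44), led by Anxa4 (1.29), Anxa1 (1.40), a mediator of the resolution of inflammation, S100a6 (1.52), S100a13 (0.76) and Anxa2 (1.27). The other 3 S100a13 probe sets (0.09, 0.50 and 0.55) were not called.

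Few lymphocyte, granulocyte and mast cell genes could be called in either direction. In the limma fit 0 of 8 T cell, 0 of 9 neutrophil and 0 of 5 mast cell and eosinophil genes were called, and of 14 B cell and plasma cell genes 0 were higher and 1, Cd24a, was lower (-0.55). Summed signals of 4 T cell markers were 455.6, 624.7 and 1096.8 in mdx against 341.4, 452.1 and 291.2 in control. The lowest mdx sum was thus barely above the highest control sum. All 4 markers were too dim to be tested. Cd3d, Cd3e and Cd3g overlapped between the groups, and only Cd8a did not. The sums overlapped for 5 neutrophil markers, at 1718.6 to 2598.2 in mdx and 1574.5 to 2011.7 in control, and for 4 B cell markers, at 11548.3 to 17690.9 in mdx and 10712.4 to 15191.5 in control. Interleukin and TNF family genes gave 1 rise and 1 fall among 19, in the receptors Il13ra1 (1.23, adjusted p = 0.032) and Lifr (-0.69, adjusted p = 0.038). Il13ra1 was lost without control replicate 1 (0.12), control replicate 3 (0.086), mdx replicate 2 (0.055) or mdx replicate 3 (0.15), and without the arrays of high albumin (0.12), where Lifr was lost too (0.41). Lifr was lost without each array in turn except mdx replicate 1, with adjusted p of 0.054 to 0.19, and its 3 other probe sets were not called. Cd24a was lost without control replicate 1 (0.28), mdx replicate 1 (0.063), mdx replicate 2 (0.083) or mdx replicate 3 (0.053). All 3 calls were lost on the 6 arrays alone, with adjusted p of 0.15 for Il13ra1, 0.14 for Lifr and 0.24 for Cd24a.

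**Figure D3:**
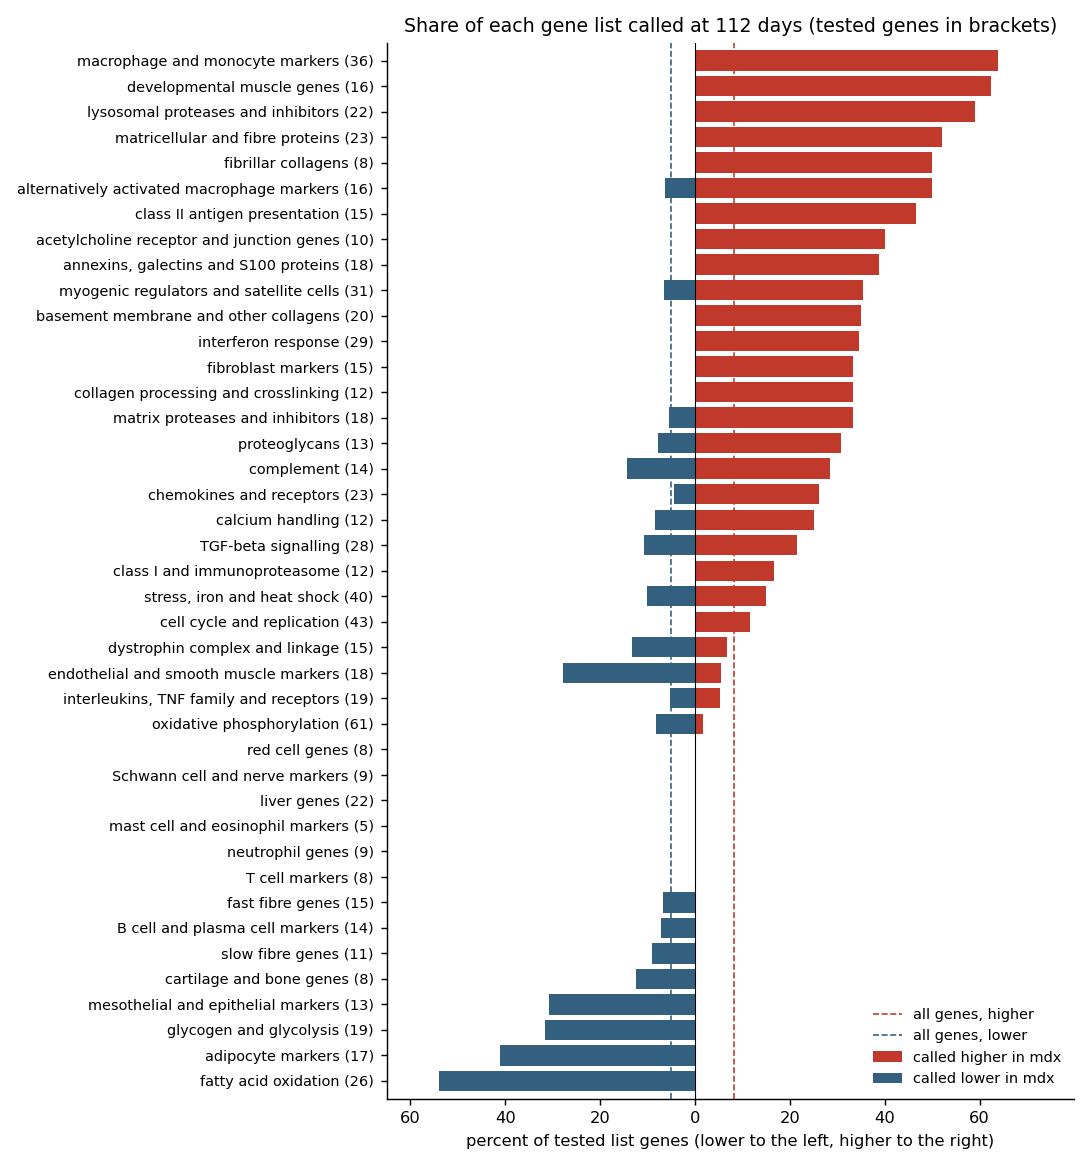
Bars give the percent of the tested genes of each list called higher (red, right) or lower (blue, left) in mdx at 112 days, with the number tested in brackets; dashed lines mark 8.27% and 5.09% of all genes. Macrophage, developmental muscle and lysosomal genes have the longest red bars, and fatty acid oxidation and adipocyte genes the longest blue bars.

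The timing of these groups was read from the test of the difference between ages. The mdx minus control difference was larger at 112 than at 28 days in 12 probe sets (0.129%) and smaller in 0 (0%), by limma on the interaction, while 803 had an unadjusted p under 0.05. Of the 11 genes 8 were matrix genes, Col3a1 (by 1.87 ± 0.22 SE, adjusted p = 1.3e-05, and by 1.59 with a second probe set), Postn (1.77), C1qtnf3 (1.71), Col1a2 (1.51), Col5a2 (1.49), Lum (1.18), Sparc (1.09) and Col6a3 (1.06). The other 3, outside the rule for named genes, were Trip6 (1.43), Tmsb10 (1.37) and the imprinted gene Peg3 (1.12).

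In these genes the controls moved with age. Col3a1 averaged 24985 ± 4030 in mdx against 27481 ± 5022 in control at 28 days, 22972 ± 3502 against 14588 ± 1937 at 56 days, and 25781 ± 2725 against 7677 ± 359 at 112 days (SD, n = 3 each). The level in mdx at 112 days differed from that at 28 days by 0.05 on the log2 scale (adjusted p = 0.84), while in control it fell by 1.82 (adjusted p = 1.4e-09). Postn averaged 20616 ± 2385 in mdx against 5455 ± 961 in control at 28 days and 15554 ± 2103 against 1172 ± 145 at 112 days. It fell by 2.18 in control (adjusted p = 1.3e-10), and in mdx the change was -0.41 (adjusted p = 0.083). All 12 probe sets fell between 28 and 112 days in control, by 0.73 to 2.38, where 11.5% of all probe sets fell and 9.49% rose. In mdx, where 7.57% of all probe sets fell and 8.09% rose, 2 of the 12 fell, Col1a2 (by 0.46) and the second Col3a1 probe set (by 0.79), and Lum rose by 0.45. Such falls in control were not particular to the 12. Col1a1 (-1.49, adjusted p = 0.0030), Myl4 (-1.01, 0.0059) and Tyrobp (-0.95, 0.0089) also fell in control, with no called change in mdx. Myh3, Myh8, Tnnt2, Myog, Chrna1, Lgals3, Ctss, Lyz2, Ccl2, C1qa and Cd74 had no called change in either genotype. This test within each genotype was added after the difference between ages had been seen, and the interaction that chose the 12 probe sets uses the same arrays. RNA state differed between these ages. The Gapdh 3'/5' ratio was 0.036 to 0.244 in control and 0.0558 to 0.66 in mdx at 28 days, against 0.518 to 0.930 and 0.532 to 0.665 at 112 days. With this ratio as a covariate the interaction called 15 probe sets larger, among them all 12. Its part in the changes within each genotype was not tested.

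Genes of regeneration and macrophages were already high at 28 days. The difference for Myh3 was 5.62 at 28 days, 5.26 at 56 days and 5.49 at 112 days, that for Myh8 was 3.84, 3.81 and 3.83, and that for Lgals3 was 3.68, 3.51 and 3.54. Ctss stood at 2.92, 2.36 and 2.87, and Chrna1 at 1.98, 1.76 and 1.75. For Ccl2 it was 3.53, 2.75 and 2.32, with a 112-minus-28 difference of -1.21 ± 0.65 (adjusted p = 0.63). Other genes stood further apart at 112 days. Ankrd1 averaged 2809 in mdx against 336 in control at 28 days and 7353 against 310 at 112 days. Myl4 averaged 19160 against 572 and then 21477 against 297, and Tyrobp 5224 against 1366 and then 5294 against 701. Over the 16 developmental muscle genes the median was 0.91 at 28 days, 1.04 at 56 days and 2.04 at 112 days. Over the 36 macrophage genes it was 1.15, 1.12 and 1.14. None of the developmental muscle, macrophage or chemokine genes tested had a called difference between 28 and 112 days, which does not show that they stayed equal. At 28 days 2.42% of all probe sets were called higher and 0.538% lower in mdx, and at 56 days 9.27% and 7.38%. Class II genes were called higher in 0 of 15 at 28 days, 2 of 15 at 56 days and 7 of 15 at 112 days, but no class II gene had a called difference between ages. Of the probe sets called higher at 112 days 174 were called higher at 28 days, which is 24.5% of the 112-day set and 77.3% of the 28-day set, and 351 at 56 days, 49.4% and 40.8%.

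**Figure D4:**
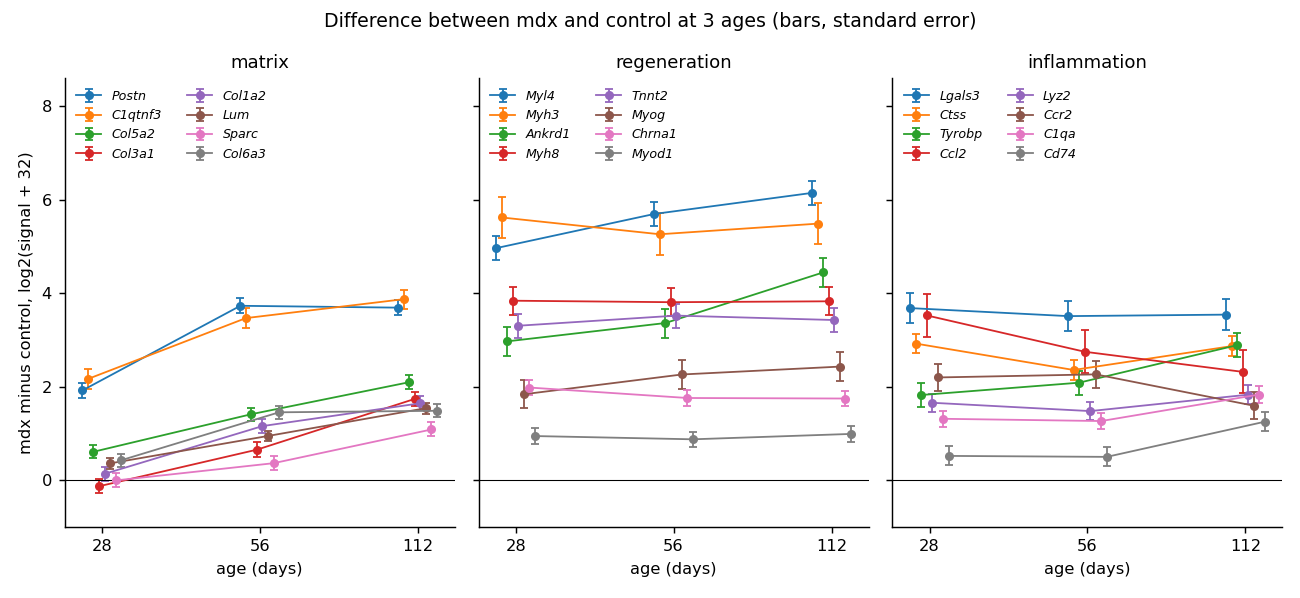
The y axis is mdx minus control on the log2(signal + 32) scale at 28, 56 and 112 days for 8 genes of each kind; points are differences of means of 3 arrays and bars their standard errors. The 8 matrix genes drawn are those called larger at 112 than at 28 days, so that choice fixed their rise (Col3a1 at -0.13 and 1.74). Matrix genes without such a call are not drawn. In the other panels Myh3 (5.62 and 5.49) and Lgals3 (3.68 and 3.54) are near level, while Myl4, Ankrd1 and Tyrobp, among others, lie higher at 112 days.

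Against 56 days the difference at 112 days was larger in 4 probe sets (0.0431%) and smaller in 5 (0.0538%). Col3a1 was again among those that grew (by 1.09, adjusted p = 0.032), with Gna11 (1.67), a G protein subunit, and Use1 (1.28), a vesicle fusion protein. Those that shrank or turned were Gosr1 (-2.79), a Golgi SNARE, Cyp4a12b (-2.77), a fatty acid hydroxylase, Trnt1 (-1.75), which completes tRNAs, and Bmp4 (-1.23), a ligand. All 7 named genes lost this call on the 12 arrays of the 2 ages alone, and none of the 9 probe sets was called there. The Col3a1 call against 56 days was lost without mdx replicate 2 (adjusted p = 0.063), control replicate 1 (0.075) or control replicate 2 (0.084), without the arrays of high albumin (0.097) and with quantile normalization (0.12). Without control replicate 3 the counts were 102 larger and 159 smaller than at 56 days, and 30 larger and 13 smaller than at 28 days. In the 28-day test C1qtnf3, Peg3, Sparc, Col6a3, Trip6 and Tmsb10 were not called on the 12 arrays of the 2 ages (adjusted p = 0.053 to 0.23), while Col3a1, Postn, Col1a2, Col5a2 and Lum held in every alternative. Single arrays ended 4 of these calls: without mdx replicate 2 or control replicate 2 the adjusted p was 0.070 and 0.056 for Col6a3, 0.070 and 0.075 for Sparc, 0.10 and 0.13 for Trip6 and 0.11 and 0.13 for Tmsb10. Without control replicate 1 it was 0.063 for Sparc, 0.055 for Trip6 and 0.11 for Tmsb10, without mdx replicate 1 it was 0.053 for Trip6 and 0.058 for Tmsb10, and without mdx replicate 3 it was 0.062 for Tmsb10.

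Among the genes lower in mdx, those of fat and fuel use stood out by number. Of 26 fatty acid oxidation genes 14 were lower and 0 higher (median -0.60). Slc25a20, the mitochondrial carnitine carrier, had 6285.7, 5223.8 and 5482.8 in mdx against 10789.7, 11374.8 and 13059.6 in control (log2 -1.05 ± 0.138 SE, adjusted p = 2.4e-06). Cpt2, which releases the fatty acid from carnitine, had 8949.0, 7283.0 and 8327.0 in mdx against 13400.3, 12439.7 and 17154.3 in control (log2 -0.80, adjusted p = 0.00031). Control replicate 1, the control array with little albumin, lies above every mdx array for both. Cd36 (-0.91), the fatty acid transporter, Hadh (-0.72) and Eci1 (-0.59) were the next. In the fit without the arrays of high albumin 1 of the 26 was called lower, and Cpt2 (adjusted p = 0.12), Cd36 (0.17), Hadh (0.41) and Eci1 (0.28) were not. The count was 9 without mdx replicate 2 and 3 on the 6 arrays alone, where Cd36 (0.070), Hadh (0.063) and Eci1 (0.11) were not called.

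Glycogen and glycolysis genes had 6 of 19 lower and 0 higher (median -0.27). Ugp2, which makes the glucose donor of glycogen, had 6016.8, 4106.7 and 5094.7 in mdx against 10811.7, 8752.4 and 7823.3 in control (log2 -0.85, adjusted p = 2.5e-05). Phka1 (-1.19), the muscle regulatory subunit of phosphorylase kinase, Slc2a4 (-0.86), the insulin-responsive glucose transporter, Phkg1 (-0.80) and Hk2 (-0.64) were lower. Phkg1 was lost without control replicate 1 (adjusted p = 0.066), Slc2a4 without the arrays of high albumin (0.17) and in a second probe set (-0.10), and on the 6 arrays alone, where 2 genes were called, Hk2 (0.13), Phkg1 (0.075) and Slc2a4 (0.071) were not. Of 61 oxidative phosphorylation genes 5 (8.2%) were lower and 1 (1.6%) higher (median -0.21). The share of falls was near the 5.09% of all genes, and 8.27% of all genes were higher. The falls included Sdha (-0.74), Cox7a1 (-0.62), Ndufa8 (-0.49) and Ndufs1 (-0.38), and the rise was Cox6a1 (0.46). None of the 6 was called without the arrays of high albumin or on the 6 arrays alone, and without single arrays 1 to 5 were called lower, 1 of them without mdx replicate 3.

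Adipocyte markers had 7 of 17 genes lower and 0 higher (median -0.89). Adig, a fat cell protein, had 759.4, 508.0 and 419.9 in mdx against 2532.0, 3582.5 and 3090.8 in control (log2 -2.41 ± 0.302 SE, adjusted p = 9.5e-07). Scd1, the desaturase of fat synthesis, had 7357.7, 5209.2 and 5385.2 in mdx against 28374.6, 21179.0 and 20142.4 in control with the brightest probe set (log2 -1.95, adjusted p = 3.5e-05). Another Scd1 probe set gave -2.31, and the dimmest was not called (-0.03). Car3 (-1.53), an abundant carbonic anhydrase of slow fibres and fat, Fasn (-0.89) and Thrsp (-0.78) were lower, and Retn, resistin, had 946.0, 198.3 and 279.8 in mdx against 1476.4, 1588.2 and 2061.8 in control (-2.06, adjusted p = 0.043). Adipoq, adiponectin, had 3854.8, 1779.8 and 3058.9 in mdx against 5269.2, 5874.8 and 6246.7 in control but was not called (log2 -1.06, adjusted p = 0.10). Summed over 3 adipocyte markers the signal was 7846.3, 5192.3 and 5524.5 in mdx against 8351.2, 10188.6 and 10204.1 in control. Of the 17, 3 were called lower without the arrays of high albumin, with Fasn (0.19), Thrsp (0.17) and Retn (0.48) lost, and 4 without mdx replicate 2 or control replicate 2. Fasn was lost without either of these arrays (0.063 and 0.052) and on the 6 arrays alone (0.059), where Thrsp was lost too (0.057). Retn was lost without each array in turn except mdx replicate 1, with adjusted p of 0.071 to 0.19.

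Endothelial and smooth muscle markers had 5 of 18 lower and 1 higher (median -0.32). Cdh5, the cadherin of endothelial junctions, had 3272.2, 2556.3 and 3611.0 in mdx against 4728.8, 4873.7 and 4557.3 in control (log2 -0.59, adjusted p = 0.0027). Sox18 (-0.69), a factor of endothelial cells, the receptors Tek (-0.72) and Flt1 (-0.63) and Vwf (-0.71), von Willebrand factor, were lower. Pecam1, another endothelial marker, was not called (log2 0.64, adjusted p = 0.47). None of the 5 falls was called without the arrays of high albumin (adjusted p = 0.076 to 0.88) or on the 6 arrays alone (0.070 to 0.28). Tek was lost without mdx replicate 2 (0.076), mdx replicate 3 (0.075) or control replicate 3 (0.086), Vwf without mdx replicate 3 (0.13), control replicate 2 (0.10) or control replicate 3 (0.098), and Flt1 without mdx replicate 2 (0.088), mdx replicate 3 (0.074), control replicate 2 (0.16) or control replicate 3 (0.053). Mesothelial and epithelial markers, which a sheet of diaphragm carries on its surface, had 4 of 13 lower and 0 higher (median -0.60). Upk3b, a mesothelial membrane protein, had 2500.4, 2219.6 and 1764.4 in mdx against 3406.0, 3411.3 and 4025.8 in control (log2 -0.74, adjusted p = 0.00058). Slpi (-0.89), Krt7 (-1.24) and Krt19 (-1.53) were the others, and none of the 4 was called without the arrays of high albumin (0.081 to 0.45) or on the 6 arrays alone (0.057 to 0.20). Slpi was lost without control replicate 3 (0.051) and in its 2 other probe sets (-0.44 and -0.27), Krt7 without mdx replicate 2 (0.074), and Krt19 without mdx replicate 2 (0.27), mdx replicate 3 (0.14), control replicate 1 (0.089) or control replicate 3 (0.16).

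**Figure D5:**
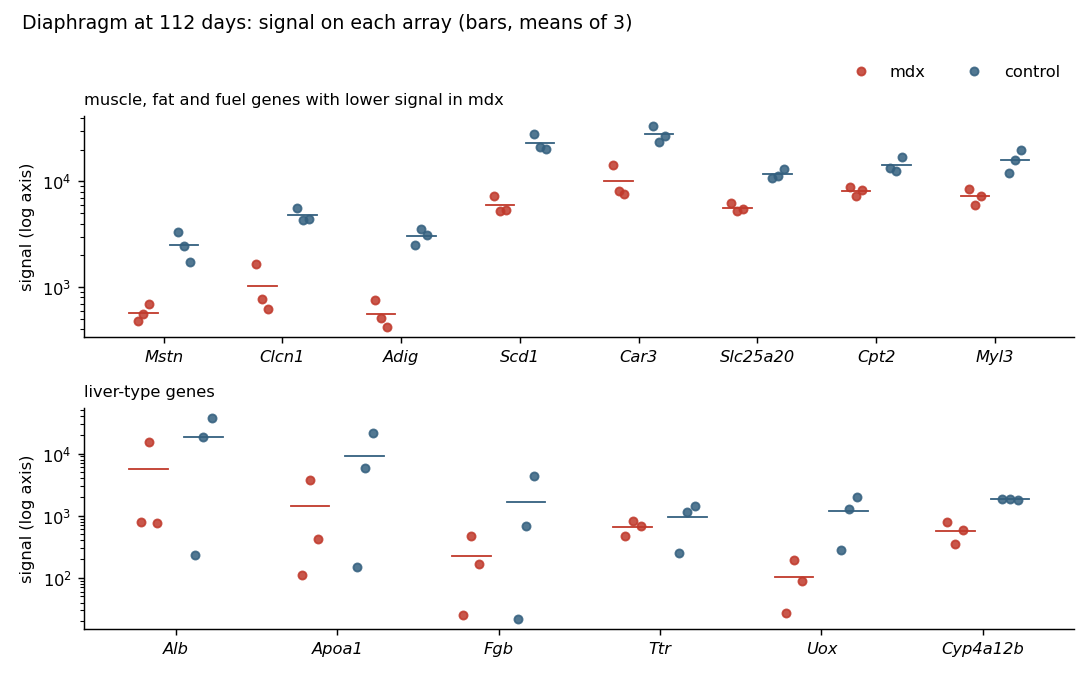
Signal of each array (log axis), with mdx in red left of control in blue and bars at the means of 3 arrays. The muscle, fat and fuel genes drawn were chosen from those called lower, some by a rule that requires no overlap. That choice favoured the order seen, with all 3 mdx arrays below all 3 control arrays, which 9.84% of all probe sets have. Alb, Apoa1 and Fgb are high on mdx replicate 2 and control replicates 2 and 3.

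Several of the largest falls lay outside the fuel lists. Clcn1, the chloride channel that steadies the fibre membrane, had 1647.5, 777.7 and 628.4 in mdx against 5549.6, 4319.7 and 4433.1 in control (log2 -2.31 ± 0.299 SE, adjusted p = 1.8e-06). At 28 days its difference was -0.42 and at 56 days -0.43, with adjusted p of 0.069 and 0.053 for the change since those ages. Rhou, a small GTPase, had 612.0, 271.9 and 258.2 in mdx against 2240.6, 3446.9 and 2516.4 in control (log2 -2.82, adjusted p = 1.9e-05), and its second probe set also fell (-1.50). Ces1d, a lipid esterase of fat and liver, had 488.4, 379.0 and 111.8 in mdx against 1662.1, 1776.2 and 1542.2 in control (log2 -2.43, adjusted p = 0.00045). Dipk1b had 1126.5, 113.7 and 154.1 in mdx against 1439.1, 1624.0 and 1416.0 in control (log2 -2.27, adjusted p = 7.7e-05), with mdx replicate 1 near the controls. That call was lost without the arrays of high albumin (adjusted p = 0.079) and on the 6 arrays alone (0.10).

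The calls of Rpl41 and Uox, like that of Retn, were lost in many alternatives. Rpl41, a ribosomal protein read by a probe set that the array maker marks as shared between similar sequences, had 3302.9, 2341.4 and 2978.1 in mdx against 43024.6, 16658.8 and 34854.9 in control, with an SE of 1.06 (log2 -3.35, adjusted p = 0.034). It was called on the 6 arrays alone but lost without mdx replicate 1 (0.057), mdx replicate 2 (0.095), mdx replicate 3 (0.074), control replicate 1 (0.10) or control replicate 3 (0.077), and without the arrays of high albumin (0.20). Uox, the uric acid oxidase of liver, had 27.0, 196.4 and 89.5 in mdx against 279.0, 1303.5 and 2033.2 in control (log2 -3.01, adjusted p = 0.033). Its order within each group follows albumin in part, with the highest values on mdx replicate 2 and control replicate 3, and it was not called without the arrays of high albumin (adjusted p = 0.20). It was also lost without mdx replicate 1 (0.12), mdx replicate 3 (0.073), control replicate 2 (0.11) or control replicate 3 (0.13), and on the 6 arrays alone (0.059). The 22 liver genes tested had a median of -1.83 with 0 called, and 11 were called lower without control replicate 1, the control array with little albumin.

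Stress and metal-binding genes closed the comparison, with 6 of 40 higher and 4 lower (median 0.07). Mt2, a metallothionein induced by inflammation and metals, had 19315.2, 21169.1 and 21511.7 in mdx against 3189.5, 4439.0 and 5074.5 in control (log2 2.30 ± 0.235 SE, adjusted p = 1.9e-08). Cat, catalase, had 3393.1, 2030.6 and 2212.2 in mdx against 4518.0, 5576.9 and 5672.9 in control (log2 -1.07, adjusted p = 0.00023). Myc (1.97), a growth factor-induced regulator with control signals of 33.3, 47.5 and 95.8, and Txn1 (0.71), thioredoxin, were higher, and Sod2 (-0.53), the mitochondrial superoxide dismutase, was lower. Cat (adjusted p = 0.13) and Sod2 (0.49) were not called without the arrays of high albumin, and a second Cat probe set was not called (-0.15). On the 6 arrays alone, with 1 of the 40 higher and 1 lower, Myc (0.073), Txn1 (0.072) and Sod2 (0.14) were not called. Of 9 Schwann cell and nerve genes and 8 red cell genes 0 were called, and of 8 cartilage and bone genes 1 was lower, Alpl, an alkaline phosphatase (-1.36), a call lost without mdx replicate 2 (0.13), without the arrays of high albumin (0.11) and on the 6 arrays alone (0.13).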

How the data were processed

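Total RNA of mdx and control diaphragm was measured on 36 arrays. The authors deposited 1 linear intensity per probe set and array; every column has a trimmed mean of 1499.2 to 1499.7, so the values had been scaled. The software was not given in the sources used here. Values were analysed as log2(value + 32). Probe sets with at least 3 arrays above percentile 40 (a signal of 374.5) were kept. limma 3.58.1 in R 4.3.3 fitted 12 group means over all 36 arrays, with Benjamini-Hochberg adjustment over 9291 probe sets. Alternatives were another pseudocount, filter, quantile normalization, array weights, a replicate block, albumin and Gapdh covariates and fits on fewer arrays. Symbols come from the platform annotation, and list genes use their brightest probe set. Named genes were Dmd, Utrn and a fixed set, the leading 12 rises and 10 falls by size among called probe sets without overlap, up to 5 per direction of an age difference and up to 5 called members per list. Groups, members, lists and the rule were chosen with earlier results of these data known. The number of arrays limits precision.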

Additional observations from a re-analysis of the deposited data

Results flagged for a closer look

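The mdx minus control difference at 112 days departed from that at an earlier age, by limma's test of the interaction, in the probe sets counted above, and up to 5 named genes in each direction are given here. Compared with 28 days it was larger by 1.87 in Col3a1 (adjusted p = 1.3e-05), 1.77 in Postn (4.3e-05), 1.71 in C1qtnf3 (0.0024), 1.51 in Col1a2 (8.2e-05) and 1.49 in Col5a2 (7.4e-05), all genes of the matrix. Compared with 56 days it was larger by 1.67 in Gna11 (0.032), 1.28 in Use1 (0.016) and 1.09 in Col3a1 (0.032). It was smaller, with a change of -2.79 in Gosr1 (0.011), -2.77 in Cyp4a12b (0.037), -1.75 in Trnt1 (0.0095) and -1.23 in Bmp4 (0.026).

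Gosr1 had 1019.6, 481.8 and 700.1 in mdx against 2244.6, 1993.1 and 1363.1 in control at 112 days (log2 -1.34), while at 56 days its difference was 1.45. Trnt1 had 2691.4, 2245.8 and 2478.2 in mdx against 3926.7, 4391.9 and 3338.8 in control (-0.64), after 1.10 at 56 days. Cyp4a12b had 778.1, 354.2 and 592.7 in mdx against 1855.5, 1867.1 and 1770.6 in control (-1.68), after 1.09 at 56 days. Gna11 had 1245.7, 1765.2 and 1176.7 in mdx against 760.3, 426.0 and 928.6 in control (1.00), after -0.67 at 56 days. In Use1 the difference was 0.52 at 112 days and -0.76 at 56 days, and in Bmp4 it was -0.48 and 0.75. Second probe sets of Bmp4 (a change of -0.02, adjusted p = 0.99), Gna11 (0.29, adjusted p = 0.87) and Use1 (0.51, adjusted p = 0.20) were not called. The causes were not tested.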

How the results depend on the processing

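With all arrays the counts were 711 higher and 420 lower at 112 days. Without the arrays with albumin above 10000 they were 456 and 149, and on the 6 arrays alone 240 and 95; leaving out single arrays gave 564 to 742 and 312 to 487. Fewer arrays entered these fits. The 12 probe sets larger than at 28 days became 27 with array weights, 39 without the arrays of high albumin and 7 on 12 arrays, and 8 to 30 without single arrays. The 0 smaller became 3 with quantile normalization, 13 with weights, 10 without the arrays of high albumin, 3 with the albumin covariate, 1 with the Gapdh ratio and 1 to 13 without single arrays. The 4 larger than at 56 days became 11 with the filter at percentile 60, 12 with quantile normalization, 38 with weights, 70 without the arrays of high albumin, 0 on 12 arrays and 3 to 102 without single arrays. The 5 smaller became 20 at percentile 60, 46 with weights, 61 without the arrays of high albumin, 11 with the albumin covariate, 0 on 12 arrays and 3 to 159 without single arrays. The cause was not tested.

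Same-numbered arrays had deviations correlated at 0.0314, 0.0545 and -0.147, which gave no sign that the numbers pair them. The deviations are taken from group means of few arrays and so constrain each other. Small correlations therefore cannot exclude pairing. With the replicate block the counts were 616 higher and 362 lower, 8 larger and 0 smaller than at 28 days, and 1 larger and 2 smaller than at 56 days. Of 163 named probe sets called, the block left 151, the fit without the arrays of high albumin 101, the 6 arrays alone 95, and single arrays left out 138 to 152. With albumin as a covariate on all arrays 157 of the 163 stayed called. Mmp2 (-0.58) and Alb (1.62) turned sign without the arrays of high albumin, neither called.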

Other observations

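Among rises outside the gene lists, the following were named after their values were seen, with no count over all genes. Sox11, a transcription factor of embryonic tissue, had 1669.2, 1755.2 and 1913.4 in mdx against 201.6, 312.1 and 274.8 in control (log2 2.64, adjusted p = 2.0e-08). Peg3, an imprinted gene expressed in muscle progenitors, had 8738.9, 7792.2 and 6663.8 in mdx against 1994.7, 1542.9 and 1783.3 in control with its most significant probe set (log2 2.10, adjusted p = 3.2e-13), another gave 2.50, and a probe set of the _f_ type gave 0.45 and was not called. Capn6, a calpain-like protein without protease activity that is made in embryonic muscle, had 2362.2, 2008.8 and 1551.3 in mdx against 211.9, 264.0 and 357.7 in control with its most changed probe set (log2 2.70), and its others gave 1.23 and 0.71, the last not called. Tubb6, a tubulin, had 15929.6, 17193.8 and 16600.8 in mdx against 3689.7, 3428.1 and 3306.5 in control (log2 2.24, adjusted p = 1.2e-11), and Rrad, a small GTPase that binds calcium channels, had 9050.7, 10515.0 and 7373.7 in mdx against 1839.9, 1217.4 and 1539.6 in control (log2 2.53). Bex1, one of the leading 12, had 1713.0, 1980.0 and 1670.9 in mdx against 187.2, 128.0 and 145.8 in control (log2 3.30, adjusted p = 4.9e-11).

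Igf2, a fetal growth factor of the developmental muscle list, had 22364.7, 24714.1 and 29286.9 in mdx against 7002.2, 5913.2 and 5328.6 in control at 112 days (log2 2.06, adjusted p = 0.034), against differences of 0.26 at 28 days and 0.35 at 56 days, and the change between 28 and 112 days was not called (adjusted p = 0.60). Tmsb10, a small actin-binding protein, read 25702.1, 25137.6 and 23894.3 in mdx against 3187.6, 3427.9 and 5306.9 in control (log2 2.68, adjusted p = 5.2e-11).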
